A study of Mus musculus with 16 samples.

Results

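The 10 genes described here carry peptides to the cell surface on major histocompatibility complex (MHC) class I molecules. They were chosen by name from the 29535 genes of the deposited expression table: the light chain gene B2m, the heavy chain genes H2-K1, H2-D1 and H2-Q10, the peptide transporter genes Tap1 and Tap2, the tapasin gene Tapbp, the immunoproteasome genes Psmb8 and Psmb9, and the regulator gene Nlrc5. All 10 were found and all 10 passed the filter on low values, which kept 16895 genes. Mouse prostate RNA, selected for poly-A tails, was sequenced in 16 libraries from animals aged 12 months, on a hybrid of the 129/SvImJ and C57Bl/6J strains. The 4 groups were wild type (+/+) given vehicle or finasteride, with 3 and 5 libraries, and homozygous mutants (-/-) of 1 gene given the same, again with 3 and 5. The name of the mutated gene is not reported here, and treated means given finasteride throughout. Finasteride blocks the enzyme that makes dihydrotestosterone, the main androgen of the prostate, from testosterone. The design asks what the mutation and the drug each do, and whether the response to the drug depends on the genotype. The labels do not give the dose, the length of treatment or the extent of the mutation.

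Class I molecules display peptides from the cell's own proteins to CD8 T cells. A proteasome cuts the proteins, and interferon exchanges its catalytic subunits for those of the immunoproteasome. The transporter TAP moves the peptides into the endoplasmic reticulum, where tapasin holds it beside empty heavy chains bound to beta-2-microglobulin. NLRC5 works at the promoters of several of these genes as the class I transactivator. Nearly all nucleated cells carry class I, and leukocytes carry much of it, so a bulk value mixes cell types: fewer cells of a type and less RNA per cell cannot be told apart in these data.

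Promoter windows of 300 bases, from 250 before to 50 after the RefSeq start site in build GRCm38.p6, were available for 8 of the 10 genes. The windows of 5 of them are shown because H2-Q10 was unlike H2-K1 and H2-D1 in expression, and because B2m and Tap1 mark the other chain and the transporter. Capitals mark every match, on either strand, to one of the 5 short motifs described after them. H2-K1 lies on the minus strand at chr17:34000298-34000597, H2-D1 on the plus strand at chr17:35262844-35263143, and H2-Q10 on the plus strand at chr17:35469839-35470138. B2m lies on the plus strand at chr2:122147437-122147736, and Tap1 on the plus strand at chr17:34187306-34187605. Each sequence reads 5′ to 3′ along the strand of its gene.
H2-K1: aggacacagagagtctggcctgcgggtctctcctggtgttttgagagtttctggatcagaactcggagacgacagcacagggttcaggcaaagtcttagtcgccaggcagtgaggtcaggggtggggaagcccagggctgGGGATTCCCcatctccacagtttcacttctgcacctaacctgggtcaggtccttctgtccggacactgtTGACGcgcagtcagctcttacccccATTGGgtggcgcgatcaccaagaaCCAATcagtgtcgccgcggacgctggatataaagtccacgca
H2-D1: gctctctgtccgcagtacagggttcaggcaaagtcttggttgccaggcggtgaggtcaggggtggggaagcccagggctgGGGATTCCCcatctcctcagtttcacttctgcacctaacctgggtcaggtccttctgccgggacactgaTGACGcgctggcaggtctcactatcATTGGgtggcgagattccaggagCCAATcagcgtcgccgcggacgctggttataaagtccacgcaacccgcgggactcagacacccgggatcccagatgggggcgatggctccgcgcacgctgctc
H2-Q10: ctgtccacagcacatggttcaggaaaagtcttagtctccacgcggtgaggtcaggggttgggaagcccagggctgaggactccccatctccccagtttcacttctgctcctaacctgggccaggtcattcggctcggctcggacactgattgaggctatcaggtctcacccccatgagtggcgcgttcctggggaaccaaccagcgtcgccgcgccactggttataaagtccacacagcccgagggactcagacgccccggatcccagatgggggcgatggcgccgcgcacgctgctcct
B2m: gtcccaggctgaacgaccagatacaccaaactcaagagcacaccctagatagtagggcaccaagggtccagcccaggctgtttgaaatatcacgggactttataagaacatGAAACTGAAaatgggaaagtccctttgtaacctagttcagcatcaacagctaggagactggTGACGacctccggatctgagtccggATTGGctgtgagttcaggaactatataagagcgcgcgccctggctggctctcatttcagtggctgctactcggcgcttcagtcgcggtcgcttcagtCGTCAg
Tap1: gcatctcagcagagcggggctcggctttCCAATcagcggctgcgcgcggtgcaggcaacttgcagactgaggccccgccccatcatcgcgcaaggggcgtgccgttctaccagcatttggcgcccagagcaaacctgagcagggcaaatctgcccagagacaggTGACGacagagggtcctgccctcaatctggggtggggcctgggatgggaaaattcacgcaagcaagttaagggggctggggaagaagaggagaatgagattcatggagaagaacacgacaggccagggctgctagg

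The windows of H2-K1 and H2-D1 were 88.3% identical over 239 aligned bases, and H2-Q10 was 84.8% identical to H2-K1 over 231 and 87.3% to H2-D1 over 291. The kappa B sequence GGGATTCCC was in the windows of H2-K1 and H2-D1, and in 0.353% of all 32851 RefSeq promoter windows of this length. In the window of H2-Q10 the same place differed by G1A and T5C, counted from 1 at the 5′ end of the motif. The CCAAT box (CCAAT) was in 6 of the 8 windows and in 37.4% of all, and the downstream CCAAT box of H2-K1 and H2-D1 differed from H2-Q10 by T5C. The core of the X2 box (TGACG), a part of the module at which NLRC5 acts, was in 5 of the 8 windows, those of B2m, H2-K1, H2-D1, Tap1 and Psmb9, and in 20.8% of all. The interferon regulatory factor element was searched in the spelling GAAANNGAA alone, which was in the B2m window and in 8.56% of all. The GAS element TTCNNNGAA was in the Psmb8 window and in 8.3% of all. None of the 5 motifs, as spelled here, was in the H2-Q10 window. Other spellings of the interferon element were not searched, so its absence from a window is not shown. The windows of H2-K1, H2-D1 and H2-Q10 all hold the bases tttcacttc, which the spelling used cannot match on either strand. Whether these bases serve as an interferon element was not tested. No motif searched overlapped another in the printed windows, and a match describes letters only. The windows of Tap1 and Psmb9 lie on opposite strands and share 275 bases, so that their X2 match is the same bases.

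Values are the authors' normalized expression on a log2 scale, so a difference of 1 is a doubling, and read depth is unknown. Their totals, taken out of log2, were lower in the 5 mutant finasteride libraries (log2 totals of 24.07 to 24.16) than in the other 11 (24.31 to 24.55). The 4 markers of prostatic secretion summed to log2 values of 19.88 to 20.09 in wild type on vehicle, 20.01 to 20.16 in wild type on finasteride, 19.0 to 19.31 in the mutant on vehicle and 16.70 to 17.24 in the mutant on finasteride. This sum was thus lowest in the group where most of the 10 genes were highest, and its part in their values was not tested. RNA of the seminal vesicle, an adjacent gland, was present unevenly: its 4 markers summed to 21.37, 9.46 and 20.06 in wild-type vehicle libraries, 9.10 to 14.29 in wild-type finasteride, 16.45 to 17.75 in mutant vehicle and 16.45 to 21.48 in mutant finasteride. The profiles of 5 libraries lay within 0.0626 to 0.0926 log2 units (root mean square) of a mixture of a pair of libraries of their own group, against 0.102 to 0.326 for the other 11. In wild type they were library 3 on vehicle and library 4 on finasteride, and in the mutant library 3 on vehicle and libraries 3 and 4 on finasteride. Results are therefore given over 16 libraries and again over the other 11. Nothing in the labels says that the libraries come from separate animals, and p-values therefore measure the spread between these samples alone. Heavy chain genes are near copies of each other, and their values are uncertain where counting could have split reads between them. Low values appear shrunken, which was not tested and would understate differences of genes with low expression.

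**Figure D1:**
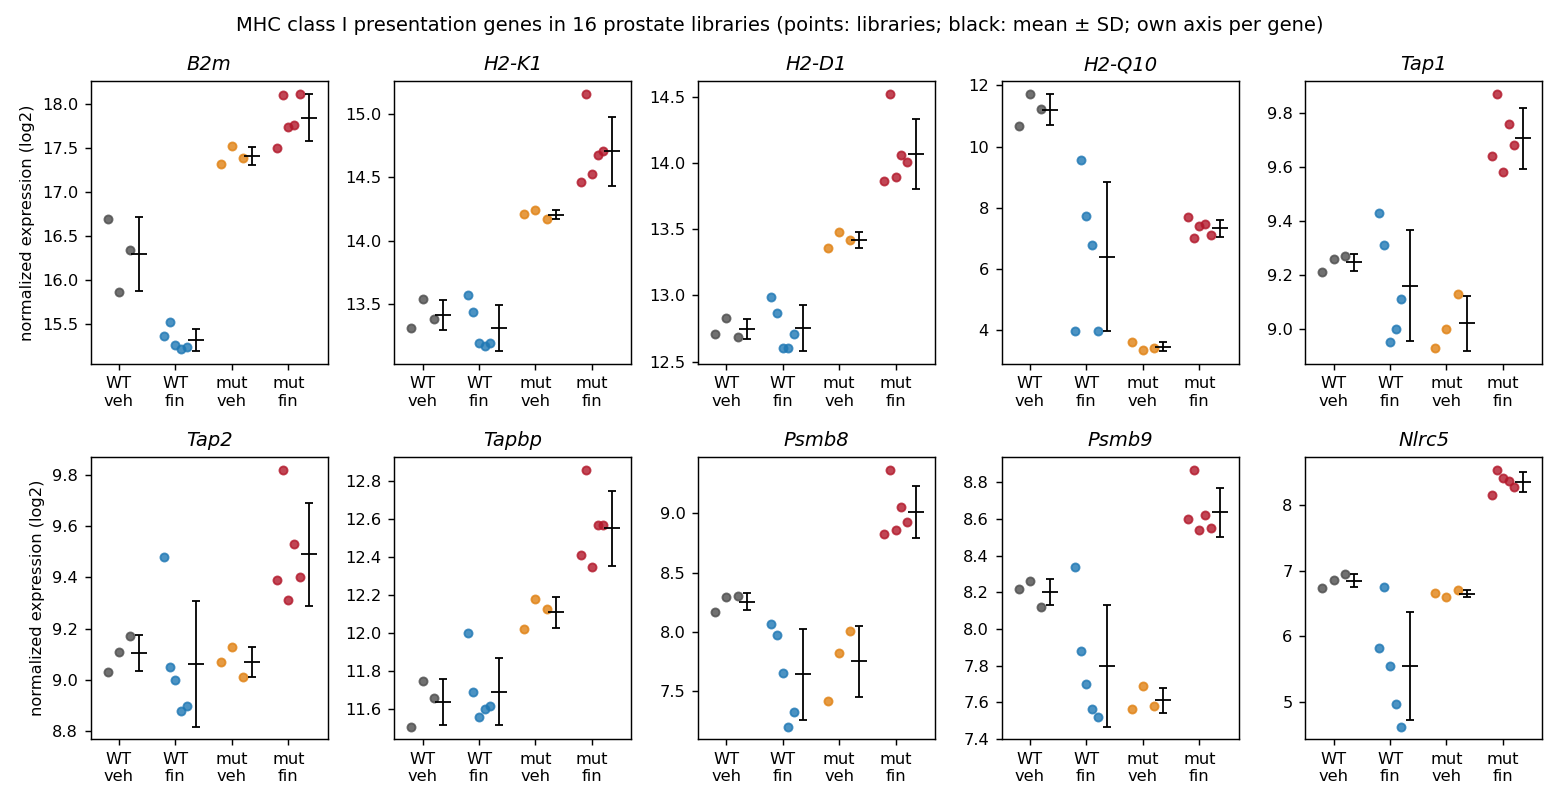
Normalized expression (log2, own axis for each gene) of the 10 genes by group (WT, wild type; mut, mutant; veh, vehicle; fin, finasteride). Points are libraries and black marks are the group mean ± SD. The 5 mutant finasteride libraries are above every other library for H2-K1, H2-D1, Tap1, Tapbp, Psmb8, Psmb9 and Nlrc5, and H2-Q10 is highest in wild type on vehicle.

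Of the 10 genes, 9 had their highest group mean in the mutant on finasteride, and H2-Q10 had its highest in wild type on vehicle. Differences were tested with limma over all 16895 genes, and called at a Benjamini-Hochberg adjusted p under 0.05; they are log2 differences ± SE. The 5 comparisons share groups, so their counts are not independent of each other. In the mutant, finasteride raised 9 of the 10 genes and lowered 0 (the background over all genes tested was 26.3% higher and 22.3% lower). On finasteride, the mutant exceeded wild type in 9 and was lower in 0 (background 33.9% higher and 29.7% lower). In wild type, finasteride raised 0 and lowered 5 (background 17.9% higher and 21.9% lower). On vehicle, the mutant was higher in 4, B2m, H2-K1, H2-D1 and Tapbp, and lower in 2, H2-Q10 and Psmb9 (background 14.3% higher and 17.5% lower). The finasteride effect was more positive in the mutant than in wild type in 9, by the interaction term, and less in 0 (background 30.2% higher and 26.6% lower).

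The median difference of the 10 genes was 0.67 for finasteride in the mutant and 1.12 for genotype on finasteride, against 0 and 0.02 over all genes tested. It was -0.25 for finasteride in wild type, -0.12 for genotype on vehicle and 1.09 for the interaction, against -0.03, 0 and 0. Over 11 libraries 5 genes rose with finasteride in the mutant, 9 were higher in the mutant on finasteride and 6 passed the interaction term, where 20.3%, 41.1% and 29.4% of all genes tested were called in either direction. On vehicle, and for finasteride in wild type, H2-Q10 was the 1 gene of the 10 that passed over 11 libraries, lower in each, where 9.06% and 8.55% of all genes were called. The share of higher among all called genes moved with the scaling: from 54.1% to 41.1% under quantile normalization for finasteride in the mutant, from 53.3% to 41.4% for genotype on finasteride and from 53.2% to 39.6% for the interaction. It moved from 44.9% to 54.1% for genotype on vehicle and from 45% to 57.9% for finasteride in wild type under the same normalization. Centring each library on its median gave 39.4%, 42.6%, 40.3%, 55.5% and 54.9% in the same order, and it left the median of all genes at -0.14 for finasteride in the mutant, -0.11 for genotype on finasteride and -0.21 for the interaction. Quantile normalization left that median at -0.09, -0.10 and -0.16.

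**Figure D2:**
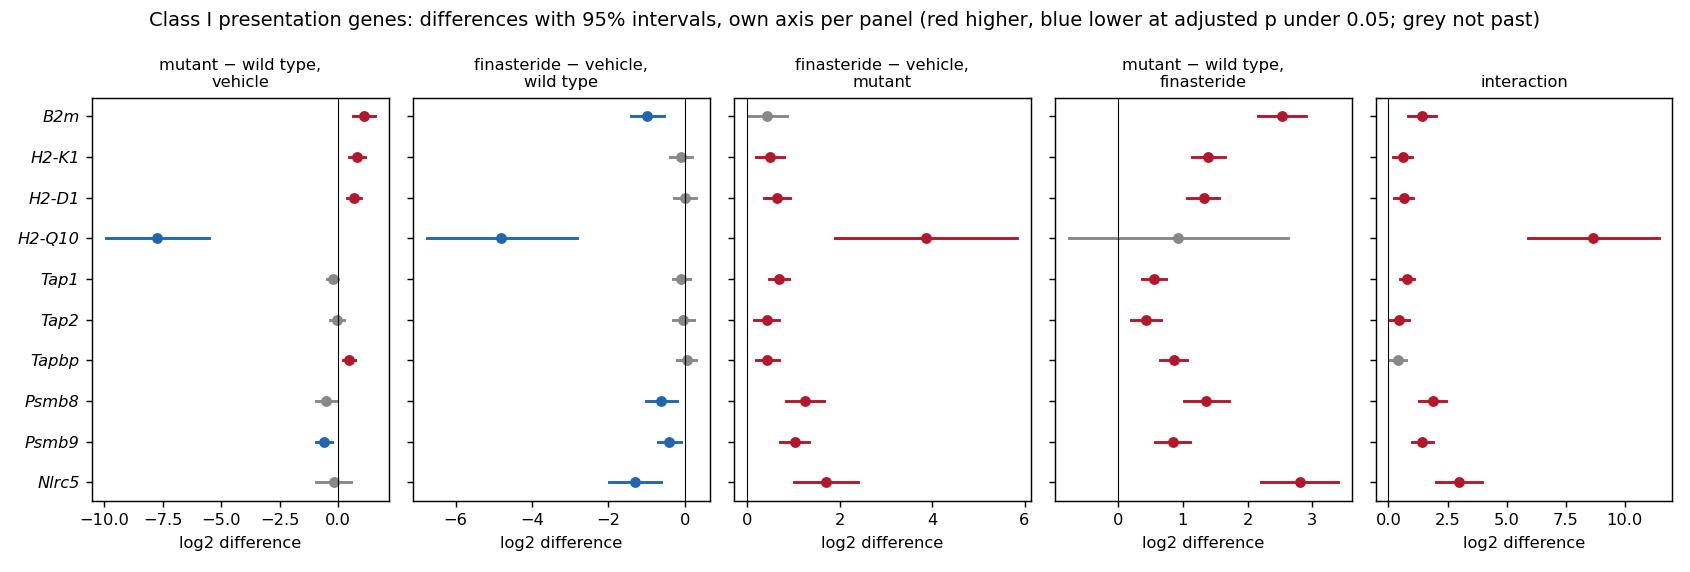
Log2 differences of the 10 genes in the 5 comparisons, with 95% intervals from limma over 16 libraries and an own horizontal axis in each panel. Red is higher, blue lower and grey not past an adjusted p of 0.05. The 9 red points of the third panel contrast with the 0 red points of the second, and the H2-Q10 intervals are the widest in each panel.

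B2m encodes beta-2-microglobulin, the light chain shared by all class I molecules. It stood at 16.70, 15.86 and 16.34 in wild type on vehicle and at 15.36, 15.52, 15.26, 15.21 and 15.24 in wild type on finasteride. In the mutant it stood at 17.32, 17.53 and 17.39 on vehicle and at 17.50, 18.11, 17.74, 17.77 and 18.12 on finasteride. All wild-type finasteride libraries were below all wild-type vehicle libraries, and every mutant library was above every wild-type library, while the mutant's finasteride and vehicle libraries overlapped through library 1 of finasteride. B2m was higher in the mutant on vehicle by 1.12 ± 0.22 (limma adjusted p = 0.00154) and on finasteride by 2.53 ± 0.17 (adjusted p = 1.11e-08). Finasteride lowered it in wild type, where it fell by 0.98 ± 0.20 log2 units (limma adjusted p = 0.00174). In the mutant the difference of 0.43 ± 0.20 did not pass (limma adjusted p = 0.0871), though it passed under quantile normalization at 0.74 (adjusted p = 0.00767) and without library 1 of mutant finasteride (adjusted p = 0.041). The interaction was 1.41 ± 0.28 (limma adjusted p = 0.000679). Over 11 libraries the effects on vehicle and of finasteride in wild type were 1.15 and -0.93, neither past the threshold (adjusted p = 0.0709 and 0.0775), and the other called effects passed. The lowest B2m value of wild type on vehicle was in library 2, which had the least seminal vesicle RNA of that group. The same held for library 4 of wild-type finasteride and library 1 of mutant vehicle. In the mutant on finasteride it was the reverse, as library 1 had the lowest B2m value and the most seminal vesicle RNA (a sum of 21.48). With the seminal vesicle markers as a covariate, the effect of finasteride in wild type was -0.76 (limma adjusted p = 0.0459).

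H2-K1 and H2-D1 encode the classical heavy chains that present peptides to CD8 T cells. H2-K1 stood at 13.31, 13.54 and 13.38 in wild type on vehicle, and at 13.57, 13.44, 13.19, 13.17 and 13.19 on finasteride. In the mutant it stood at 14.21, 14.24 and 14.17 on vehicle, and at 14.46, 15.16, 14.53, 14.68 and 14.71 on finasteride. The wild-type groups overlapped, and each mutant group was apart from the others. Wild-type vehicle libraries held H2-D1 at 12.71, 12.83 and 12.69, and wild-type finasteride libraries at 12.99, 12.87, 12.60, 12.60 and 12.71. Mutant vehicle libraries held it at 13.36, 13.48 and 13.42, and mutant finasteride libraries at 13.86, 14.52, 13.89, 14.06 and 14.01. Its groups were placed as those of H2-K1, and across the 16 libraries the centred profiles of both genes differed by 0.0883 log2 units (root mean square), the least of all pairs among the 10 genes.

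Both classical heavy chains were higher in the mutant on vehicle, H2-K1 by 0.80 ± 0.16 (limma adjusted p = 0.00121) and H2-D1 by 0.67 ± 0.15 (adjusted p = 0.00271). On finasteride the genotype difference was 1.39 ± 0.12 for H2-K1 (limma adjusted p = 1.19e-07) and 1.32 ± 0.11 for H2-D1 (adjusted p = 1.16e-07). Finasteride raised H2-K1 by 0.50 ± 0.14 (limma adjusted p = 0.00808) and H2-D1 by 0.65 ± 0.13 (adjusted p = 0.000884) in the mutant. In wild type the differences were -0.10 (95% interval -0.39 to 0.20) and 0.01 (-0.27 to 0.29), neither past the threshold. The interaction was 0.60 ± 0.20 (limma adjusted p = 0.0179) and 0.64 ± 0.19 (adjusted p = 0.0085). Over 11 libraries the genotype effect on vehicle was 0.80 and 0.65 (limma adjusted p = 0.0539 and 0.085), and the interaction was 0.62 and 0.69 (adjusted p = 0.124 and 0.0741), so those calls were lost. The finasteride effect in the mutant was then 0.55 for H2-K1 (limma adjusted p = 0.0872) and 0.71 for H2-D1 (adjusted p = 0.0276).

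H2-Q10 encodes a secreted class I heavy chain, known as a serum protein made by the mouse liver. Of the 10 genes it spanned the widest range. It stood at 10.68, 11.71 and 11.23 in wild type on vehicle and at 3.99, 9.55, 7.73, 6.78 and 3.98 on finasteride. In the mutant it stood at 3.62, 3.35 and 3.43 on vehicle and at 7.69, 7.0, 7.42, 7.47 and 7.11 on finasteride. The vehicle groups lay at opposite ends, the treated mutant lay between them, and the treated wild-type libraries spread across almost the whole range between the vehicle groups. On vehicle it was lower in the mutant, with a log2 difference of -7.74 ± 1.0 (limma adjusted p = 5.18e-05).

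Finasteride moved H2-Q10 in opposite directions in the genotypes. It fell in wild type by a log2 value of 4.8 ± 0.92 (limma adjusted p = 0.00114) and rose by 3.87 ± 0.92 in the mutant (adjusted p = 0.00296), with an interaction of 8.67 ± 1.3 (adjusted p = 6.34e-05). On finasteride the genotypes differed by 0.93 ± 0.80 (95% interval -0.77 to 2.63, limma adjusted p = 0.32). Without library 2 of wild-type finasteride it was 1.72 and passed (limma adjusted p = 0.0238), and without library 1 or 5 of that group it was 0.33 (adjusted p of at most 0.718). Over 11 libraries the effects were -7.71 on vehicle (limma adjusted p = 0.0132), -4.88 in wild type (adjusted p = 0.0491), 3.78 in the mutant (adjusted p = 0.0825) and 8.66 for the interaction (adjusted p = 0.00964). Values of about 3.4, as in the mutant on vehicle, are near the low end of the scale, where differences may be understated.

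Of the 6 liver markers, Alb, Apoa1, Serpina1a and Ahsg were below the filter on low values. Apoa1 stood at 1.48 to 2.75 in wild type on vehicle, where H2-Q10 was highest. Ttr, a liver marker made in other tissues too, stood at 3.75 to 4.15 there and at 5.28 to 6.44 in the treated mutant. Apoa2, the other liver marker tested, stood at 3.06 to 3.83 and at 1.28 to 3.65 in these groups. With finasteride in the mutant Ttr rose by 1.5 ± 0.45 (limma adjusted p = 0.0129), and Apoa2, at -1.31 ± 0.65, did not pass (adjusted p = 0.109). The profiles most like H2-Q10 were those of Pdzk1, a scaffold for membrane transporters (root mean square difference of centred profiles 0.710 over 16 libraries), Lrrc52 (0.896), and the calcium channel Trpv6 (0.907). Trpv6 stood at 12.21, 11.66 and 11.87 in wild type on vehicle, at 5.60, 11.10, 10.71, 9.76 and 5.02 on finasteride, and at 5.80, 6.08 and 6.08 in the mutant on vehicle. Because Trpv6 was chosen by likeness, a match was favoured: as for H2-Q10, libraries 1 and 5 of wild-type finasteride were the low ones. The 4 secretion markers did not share a course. Spink3, a protease inhibitor of prostatic fluid, stood at 7.97 and 8.52 in those libraries and at 15.68 to 17.25 in the other 3 of the group, but at 13.79 to 14.25 in the mutant on vehicle, where H2-Q10 was lowest. Msmb, beta-microseminoprotein, was lower in the mutant on vehicle, at -6.48 ± 0.75 (limma adjusted p = 1.54e-05), and rose with finasteride in the mutant by 3.40 ± 0.67 (adjusted p = 0.000742). In wild-type finasteride library 5 it stood at 10.79, close to libraries 3 and 4 (10.86 and 10.82), where H2-Q10 was higher. Probasin (Pbsn) and the transglutaminase Tgm4 went the other way with finasteride in the mutant, at -4.61 ± 0.22 and -2.70 ± 0.30 (limma adjusted p = 1.64e-09 and 5.77e-06), and in wild type Tgm4 rose by 0.91 ± 0.30 (adjusted p = 0.0261). The part of secretory cells in the H2-Q10 values was not tested.

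**Figure D3:**
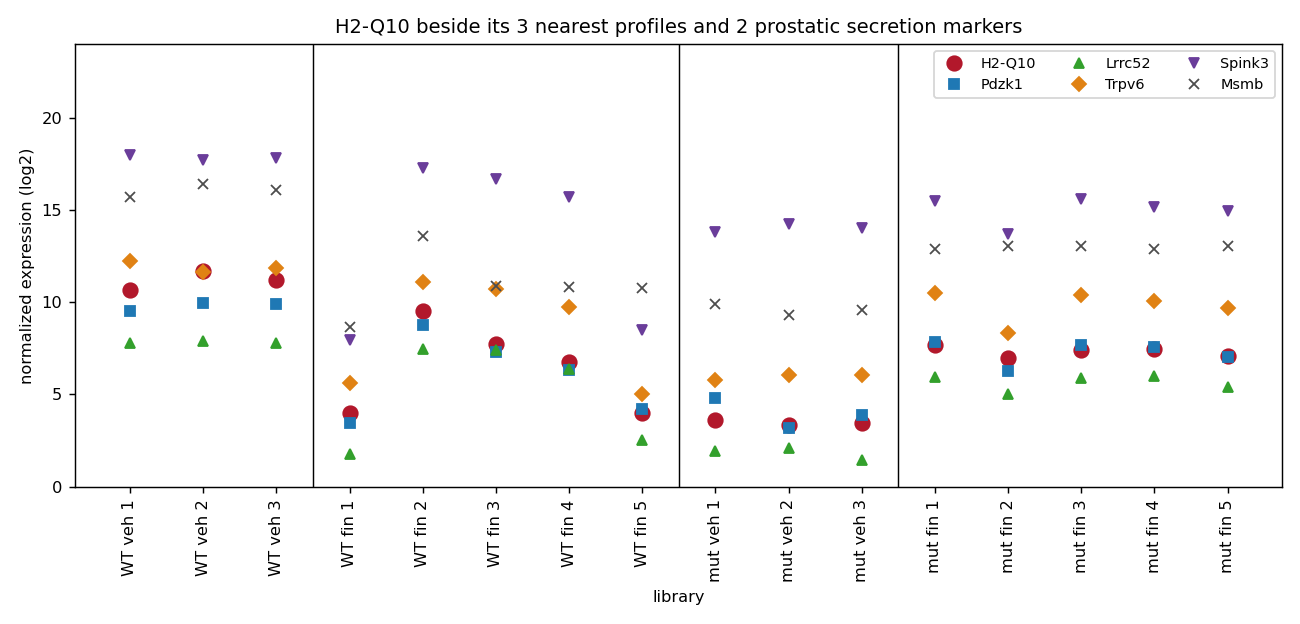
Normalized expression (log2) of H2-Q10, of its 3 nearest profiles (Pdzk1, Lrrc52 and Trpv6) and of the secretion markers Spink3 and Msmb in each of the 16 libraries, with lines between the groups. Libraries 1 and 5 of wild-type finasteride are low for H2-Q10 (3.99 and 3.98), Trpv6 (5.60 and 5.02) and Spink3 (7.97 and 8.52).

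The other heavy chain genes were taken from a list of 32, of which 28 were in the table and 12, besides the 3 above, were tested. In the mutant, finasteride raised 7 of them and lowered 2, with a median of 0.70, and on finasteride the mutant was higher in 8 and lower in 1, with a median of 0.84. H2-Q6, H2-Q7 and H2-Q5, genes of the Qa region beside H2-Q10, rose with finasteride in the mutant by 1.82 ± 0.24, 1.74 ± 0.26 and 1.54 ± 0.22 (limma adjusted p = 2.44e-05, 8.56e-05 and 4.2e-05). H2-Q6 had lowest, median and highest values of 7.14, 7.39 and 7.59 in wild type on vehicle, 5.98, 6.37 and 7.39 in wild type on finasteride, 7.10, 7.43 and 7.64 in the mutant on vehicle and 9.04, 9.19 and 9.43 in the mutant on finasteride. Its treated mutant libraries were above all others, and its vehicle groups overlapped. H2-T23, which encodes Qa-1, a ligand of inhibitory receptors on natural killer cells, rose by 0.56 ± 0.15 (limma adjusted p = 0.00711), and H2-M3, which presents formylated peptides, by 0.84 ± 0.13 (adjusted p = 0.000121).

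H2-Q2 and H2-M10.6 went the other way. H2-Q2 fell by 0.90 ± 0.079 on the log2 scale with finasteride in the mutant (limma adjusted p = 6.02e-07), after being 0.55 ± 0.089 higher in the mutant on vehicle (adjusted p = 0.000269). H2-M10.6 fell by 0.69 ± 0.24 (limma adjusted p = 0.0245). In wild type, finasteride raised 0 of the 12 and lowered 4, H2-Q2, H2-Q4, H2-Q5 and H2-Q6, with a median of -0.37. On vehicle the mutant was higher in 2, H2-Q2 and H2-K2, and lower in 1, H2-M3, with a median of 0.03. The interaction was higher in 7 and lower in 1, with a median of 0.86. Over 11 libraries 6 rose and 1 fell in the mutant with finasteride, and 0 rose and 1 fell in wild type.

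**Figure D4:**
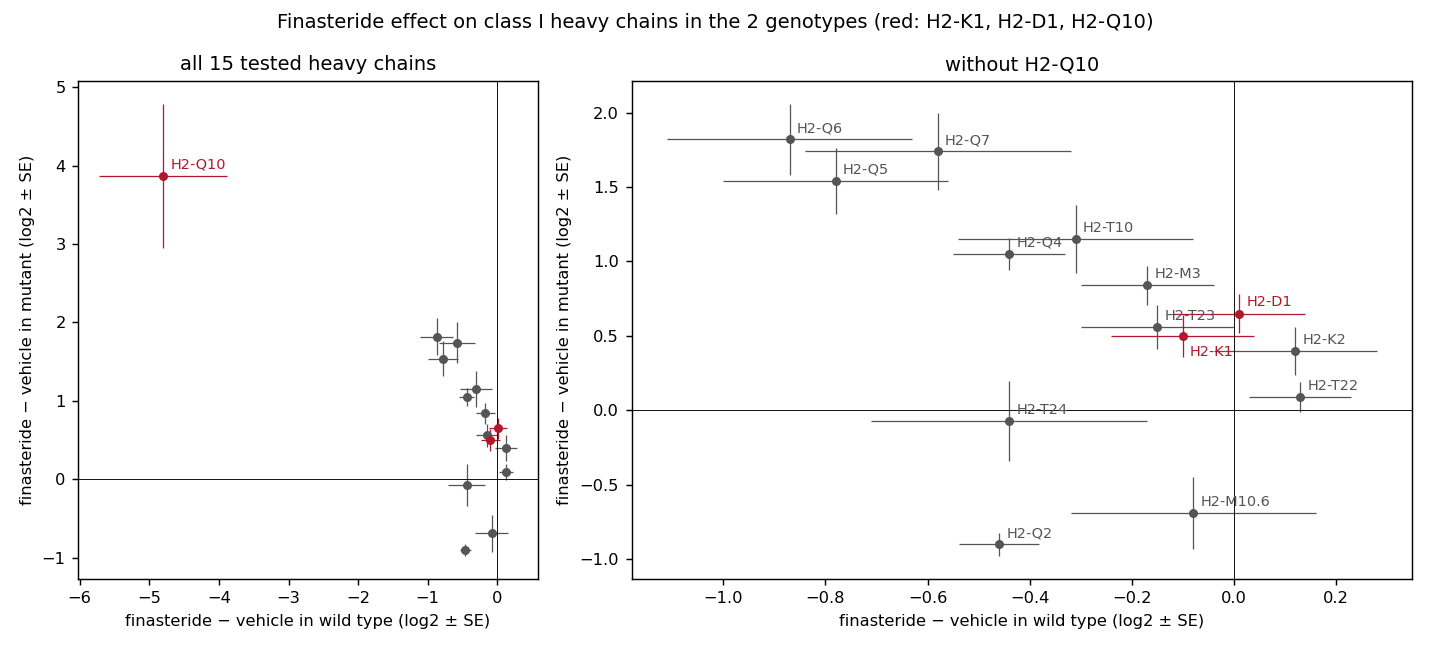
Finasteride effect (log2 difference ± SE) in wild type on the horizontal axis and in the mutant on the vertical axis for the 15 heavy chain genes tested, all at left and without H2-Q10 at right. H2-Q10 is at -4.8 and 3.87, H2-Q5, H2-Q6 and H2-Q7 are above 1.5 in the mutant, and H2-Q2 is at -0.90.

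Class I-like heavy chains that also pair with B2m did not move as a group. Cd1d1, which presents lipids to natural killer T cells, rose with finasteride in the mutant by 1.95 ± 0.28 (limma adjusted p = 4.53e-05) and fell by 1.20 ± 0.28 on the log2 scale in wild type (adjusted p = 0.00352). Fcgrt, the neonatal Fc receptor that spares antibodies from breakdown, rose in the mutant by 1.06 ± 0.14 (limma adjusted p = 2.05e-05). Mr1, which presents vitamin metabolites, fell there by 0.84 ± 0.11 log2 units (limma adjusted p = 2.73e-05), and the iron regulator Hfe, at -0.44 ± 0.18, did not pass (adjusted p = 0.0579). On vehicle the order was turned: Mr1 and Hfe were higher in the mutant, by 1.21 ± 0.13 and 1.35 ± 0.20 (limma adjusted p = 5.87e-06 and 0.00015), and Cd1d1 and Fcgrt were lower, at -0.97 ± 0.31 and -0.51 ± 0.15 (adjusted p = 0.0254 and 0.0182).

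Tap1 and Tap2 encode the subunits of the peptide transporter. Tap1 stood at 9.21, 9.26 and 9.27 in wild type on vehicle, 9.43, 9.31, 8.95, 9.0 and 9.11 in wild type on finasteride, 8.93, 9.0 and 9.13 in the mutant on vehicle, and 9.64, 9.87, 9.58, 9.76 and 9.68 in the mutant on finasteride. The treated mutant was above all other libraries, and treated wild type overlapped both vehicle groups. Values for Tap2 were 9.03, 9.11 and 9.17 in wild type on vehicle, 9.48, 9.05, 9.0, 8.88 and 8.90 in wild type on finasteride, 9.07, 9.13 and 9.01 in the mutant on vehicle, and 9.39, 9.82, 9.31, 9.53 and 9.40 in the mutant on finasteride. The treated mutant was above both vehicle groups and overlapped treated wild type through library 1 of that group.

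With finasteride in the mutant, Tap1 rose by 0.69 ± 0.10 (limma adjusted p = 7.16e-05) and Tap2 by 0.42 ± 0.13 (adjusted p = 0.0139). On finasteride the mutant was higher by 0.55 ± 0.089 for Tap1 (limma adjusted p = 7.37e-05) and 0.43 ± 0.11 for Tap2 (adjusted p = 0.00351). On vehicle the genotype difference was -0.23 ± 0.11 for Tap1 and -0.04 ± 0.14 for Tap2 (limma adjusted p = 0.142 and 0.879), and finasteride in wild type gave -0.09 ± 0.10 and -0.04 ± 0.13 (adjusted p = 0.516 and 0.807). The interaction was 0.78 ± 0.14 for Tap1 (limma adjusted p = 0.000374) and 0.46 ± 0.18 for Tap2 (adjusted p = 0.0401). Over 11 libraries Tap1 passed the same 3 comparisons. Tap2 then passed for genotype on finasteride alone (0.43, limma adjusted p = 0.0455), with 0.44 for finasteride in the mutant (adjusted p = 0.115) and 0.40 for the interaction (adjusted p = 0.246). The Tap2 interaction was lost in 9 of the 16 fits that left out 1 library each, and finasteride in the mutant was not past it without library 3 of mutant vehicle (limma adjusted p = 0.0549). With the seminal vesicle covariate, genotype on finasteride did not pass for Tap2 (limma adjusted p = 0.133).

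Tapbp encodes tapasin, which bridges the transporter and the heavy chain. It stood at 11.51, 11.75 and 11.66 in wild type on vehicle and at 12.00, 11.69, 11.56, 11.60 and 11.62 on finasteride. In the mutant it stood at 12.02, 12.18 and 12.13 on vehicle and at 12.41, 12.86, 12.35, 12.57 and 12.57 on finasteride. The wild-type groups overlapped, and the mutant groups were above them and apart from each other. The mutant was higher by 0.47 ± 0.13 on vehicle (limma adjusted p = 0.0117) and by 0.86 ± 0.10 on finasteride (adjusted p = 2.69e-06), and finasteride raised it in the mutant by 0.44 ± 0.12 (adjusted p = 0.00544). In wild type the difference was 0.05 ± 0.12 (limma adjusted p = 0.739), and the interaction, 0.39 ± 0.16, did not pass (adjusted p = 0.0537). Without library 1 of wild-type vehicle the difference on vehicle was not past the threshold (limma adjusted p = 0.052), and over 11 libraries it was 0.47 (adjusted p = 0.144), with finasteride in the mutant at 0.51 (adjusted p = 0.0547).

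The general chaperones and trimming enzymes of peptide loading did not rise with the class I genes. Of the 7 listed, finasteride in the mutant raised 0 and lowered 6, with a median of -0.42, and the interaction was lower in all 7, with a median of -0.51. Calnexin (Canx), which folds new heavy chains, fell by 0.42 ± 0.078 log2 units (limma adjusted p = 0.000465), Uggt1, a sensor of misfolded glycoproteins, by 0.58 ± 0.078 (adjusted p = 2.79e-05), and Erap1, which trims peptides, by 0.46 ± 0.081 (adjusted p = 0.000296). On finasteride the mutant was lower in 5 and higher in 0, on vehicle higher in 1 and lower in 0, and in wild type finasteride called 0 in either direction. Over 11 libraries 4 fell with finasteride in the mutant, and 3 were lower for the interaction.

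Psmb8 and Psmb9 encode catalytic subunits of the immunoproteasome. Psmb8 stood at 8.17, 8.29 and 8.30 in wild type on vehicle, and at 8.07, 7.97, 7.65, 7.20 and 7.32 on finasteride. In the mutant it stood at 7.42, 7.82 and 8.01 on vehicle, and at 8.83, 9.37, 8.86, 9.05 and 8.93 on finasteride. Finasteride libraries of wild type were all below its vehicle libraries, and those of the mutant all above every other library. Psmb9 values were 8.22, 8.26 and 8.12 in wild type on vehicle, and 8.34, 7.88, 7.70, 7.56 and 7.52 on finasteride. For the mutant they were 7.56, 7.69 and 7.58 on vehicle, and 8.60, 8.87, 8.54, 8.62 and 8.55 on finasteride. The treated mutant was again above all others and the mutant on vehicle below wild type on vehicle, while the wild-type groups overlapped through library 1 of finasteride.

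Finasteride raised Psmb8 by 1.26 ± 0.19 (limma adjusted p = 8.76e-05) and Psmb9 by 1.03 ± 0.15 (adjusted p = 5.17e-05) in the mutant. It lowered both in wild type, where Psmb8 fell by 0.61 ± 0.19 and Psmb9 by 0.40 ± 0.15 log2 units (limma adjusted p = 0.0199 and 0.0422). The interaction was 1.87 ± 0.27 for Psmb8 (limma adjusted p = 4.56e-05) and 1.43 ± 0.21 for Psmb9 (adjusted p = 4.95e-05). On finasteride the mutant was higher by 1.36 ± 0.17 and 0.84 ± 0.13 (limma adjusted p = 4.11e-06 and 4.17e-05). On vehicle it was lower for Psmb9, at -0.59 ± 0.17 (limma adjusted p = 0.0129), and Psmb8, at -0.50 ± 0.21, did not pass (adjusted p = 0.0867). The effects in wild type were the least firm. That of Psmb9 was lost in 12 of the 16 fits without 1 library, with limma adjusted p up to 0.11, and that of Psmb8 without wild-type vehicle library 2 or 3 (adjusted p = 0.0547 and 0.0666). Over 11 libraries neither passed (-0.48 and -0.38, limma adjusted p = 0.189 and 0.237), nor did Psmb9 on vehicle (-0.62, adjusted p = 0.135), whereas both genes passed the 3 other comparisons.

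The rest of the immunoproteasome and its activator changed less. Of 4 further genes, finasteride in the mutant raised 2, Psmb10, its remaining catalytic subunit, by 0.56 ± 0.16 (limma adjusted p = 0.00988) and the activator subunit Psme1 by 0.51 ± 0.13 (adjusted p = 0.0043). Psme2, the partner of Psme1, was at 0.20 ± 0.13 (limma adjusted p = 0.204). The same 2 genes were higher on finasteride in the mutant and in the interaction, and 0 of the 4 passed in the other comparisons. Over 11 libraries 2 passed for genotype on finasteride and 0 elsewhere. Of 16 genes listed for the constitutive proteasome, among them the activator genes Psme3 and Psme4, finasteride raised 0 and lowered 3 in the mutant. Their median there was -0.03, and in wild type finasteride raised 1 and lowered 1.

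Nlrc5 encodes the class I transactivator and was the gene with the largest rise in the treated mutant after H2-Q10. It stood at 6.74, 6.85 and 6.94 in wild type on vehicle, and at 5.82, 6.75, 5.55, 4.97 and 4.62 on finasteride. In the mutant it stood at 6.65, 6.59 and 6.70 on vehicle, and at 8.15, 8.54, 8.41, 8.37 and 8.28 on finasteride. The treated mutant was far above all others, the vehicle groups were close, and 4 of the 5 treated wild-type libraries were below every vehicle library. Finasteride raised it in the mutant by 1.7 ± 0.32 (limma adjusted p = 0.00054), and in wild type it fell by 1.30 ± 0.32 on the log2 scale (adjusted p = 0.00563). The interaction was 3.0 ± 0.46 (limma adjusted p = 6.83e-05), and the mutant exceeded wild type on finasteride by 2.81 ± 0.28 (adjusted p = 5.19e-07). On vehicle the genotypes differed by -0.19 ± 0.36 (limma adjusted p = 0.721). Over 11 libraries the fall in wild type was -1.11 and did not pass (limma adjusted p = 0.123), the seminal vesicle covariate gave -1.21 (adjusted p = 0.061), and the other 3 calls were kept.

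Other listed regulators of class I genes were mixed. The 18 include the class II transactivator Ciita and the signalling inhibitor Socs1, so not all bind class I promoters. Of the 18, finasteride raised 3 and lowered 4 in the mutant, and on finasteride the mutant was higher in 8 and lower in 5. Irf2 was lower in the mutant on vehicle, at -1.43 ± 0.20 (limma adjusted p = 9.34e-05). Among 7 tested interferon receptors and kinases, Ifngr1, a chain of the interferon gamma receptor, was lower in the mutant on finasteride, at -1.20 ± 0.073 (limma adjusted p = 2.91e-09), and the kinase Jak2 was higher, at 0.94 ± 0.082 (adjusted p = 1.22e-07). The interferon genes Ifng and Ifnb1 were below the filter on low values.

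Interferon-induced genes outside the 10 were called more often higher than lower with finasteride in the mutant, and more often lower in wild type. Of 30, finasteride in the mutant raised 15 and lowered 1, with a median of 0.55, and in wild type it raised 0 and lowered 20, with a median of -0.83. On finasteride 22 were higher and 1 lower in the mutant, and the interaction was higher in 24 and lower in 1. On vehicle 3 were higher and 10 lower in the mutant. Ifit3, which binds viral RNA, rose in the mutant by 1.30 ± 0.20 (limma adjusted p = 9.1e-05) and fell by 1.11 ± 0.20 on the log2 scale in wild type (adjusted p = 0.000749). The antiviral GTPase Mx1 was the 1 gene lower with finasteride in the mutant, at -2.25 ± 0.20 (limma adjusted p = 6.14e-07). Over 11 libraries 6 rose and 1 fell in the mutant, 0 rose and 4 fell in wild type, and 16 were higher and 1 lower on finasteride.

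Markers of immune cells rose with finasteride in the mutant, where most of the class I genes also rose. The 4 markers of all leukocytes summed to 9.77 to 9.84 in wild type on vehicle, 8.83 to 9.49 in wild type on finasteride, 9.52 to 9.60 in the mutant on vehicle and 10.71 to 11.49 in the mutant on finasteride. Finasteride raised all 4 in the mutant, with a median of 1.5, and lowered 3 in wild type, with a median of -0.65; on vehicle 0 of the 4 passed. Over 11 libraries all 4 rose in the mutant and 0 passed in wild type. The pan-leukocyte gene Ptprc (CD45) rose in the mutant by 1.27 ± 0.15 (limma adjusted p = 1.03e-05) and fell by 0.80 ± 0.15 on the log2 scale in wild type (adjusted p = 0.00104). All 9 class II presentation genes, 8 of 10 T and NK cell markers, 4 of 4 B cell markers and 8 of 8 macrophage and dendritic cell markers also rose with finasteride in the mutant, with medians of 1.29, 1.28, 2.97 and 1.12; over 11 libraries 8, 6, 4 and 7 of them rose. The part of these cells in the class I values was not tested.

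On vehicle, where leukocyte markers did not pass between the genotypes, B2m, H2-K1, H2-D1 and Tapbp were higher in the mutant over 16 libraries and Nlrc5, Tap1, Tap2 and Psmb8 did not pass; 4 of 10 T and NK cell markers were higher (sums of 8.74 to 8.89 against 8.12 to 8.25) and 6 of 8 macrophage and dendritic cell markers were lower (11.30 to 11.39 against 11.89 to 11.92). Over 11 libraries 0 of these T and NK cell markers were higher and 0 of the macrophage and dendritic cell markers lower. The 6 epithelial markers had a median of 0.14, with 2 higher and 1 lower. In wild type over 16 libraries, finasteride lowered 3 leukocyte markers, B2m, H2-Q10, Psmb8, Psmb9 and Nlrc5, while H2-K1, H2-D1, Tap1, Tap2 and Tapbp did not pass. Endothelial cells, which carry class I as well, had 3 of 4 markers higher with finasteride in the mutant, with a median of 0.83. Library 2 of mutant finasteride held the highest value of its group for 8 of the 10 genes. That library also had the highest leukocyte and epithelial sums, 11.49 and 15.73, and the lowest seminal vesicle sum of its group, 16.45. Library 1 of wild-type finasteride was the highest of its group for 7, and it had the highest leukocyte sum of its group, 9.49. Its epithelial and seminal vesicle sums, 15.51 and 14.29, were the highest of that group too. How often these libraries were highest over all genes was not tested. In their leukocyte sums the vehicle groups differed from the finasteride groups. In the mutant on vehicle the highest leukocyte sum, 9.60, was in library 1, which was the lowest of its group for 6 genes. In wild type on vehicle library 3 had the highest sum, 9.84, but library 2 was the highest for 5 genes. Library 1 there had the lowest sum, 9.77, and was the lowest for 7.

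**Figure D5:**
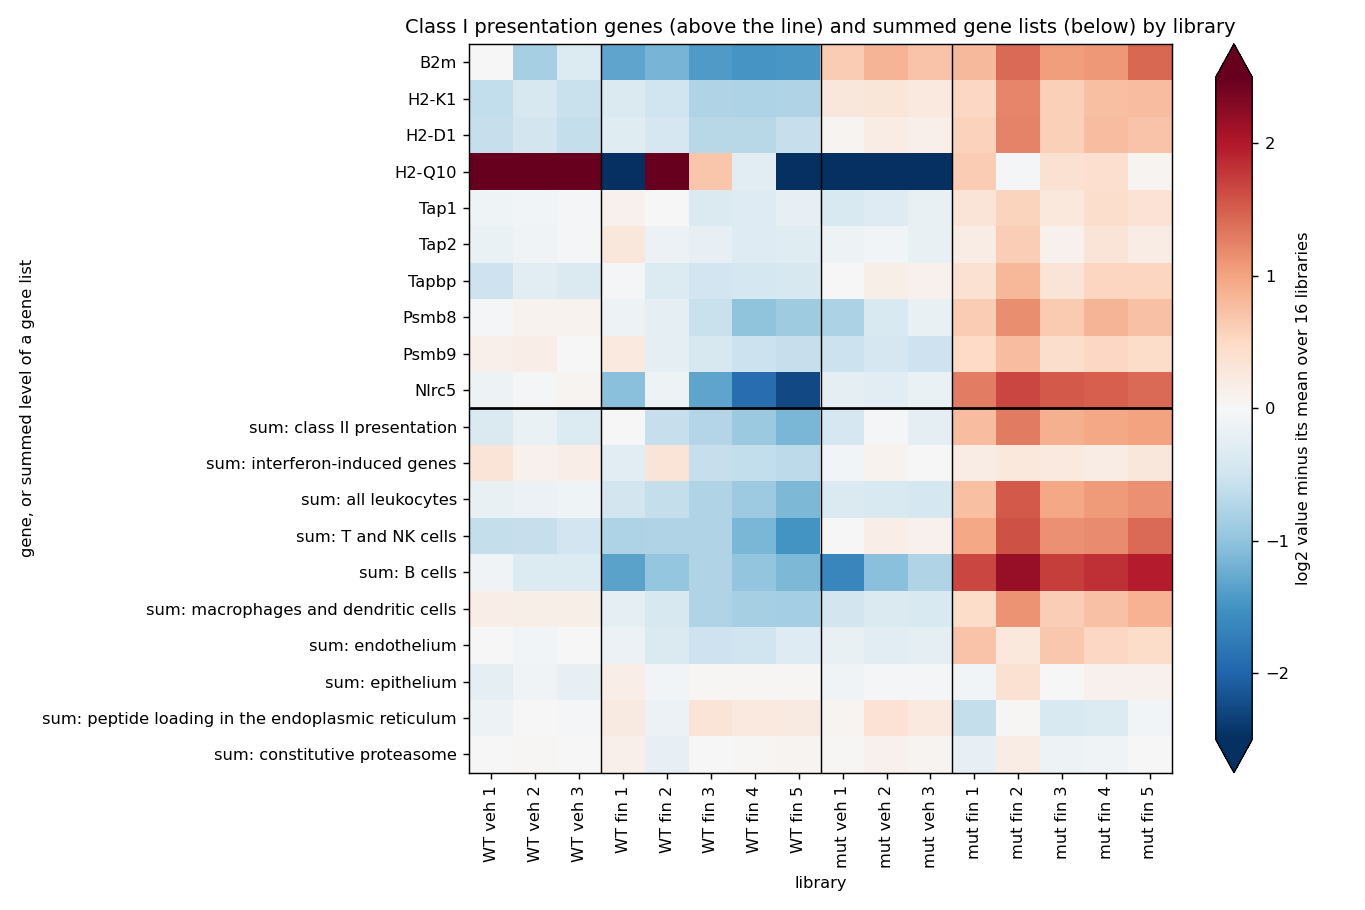
Log2 values of the 10 genes (above the line) and of summed gene lists (below), each minus its own mean over the 16 libraries; red is above and blue below, with colour limits at -2.5 and 2.5. The treated mutant libraries are red for 9 genes and for leukocyte and class II sums, and H2-Q10 is red in wild type on vehicle.

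By profile likeness, as root mean square difference of centred log2 values over 16 libraries, the genes nearest to B2m were Kcnip3 (0.195), Usp35 (0.223) and the interleukin receptor chain Il2rb (0.257). Kcnip3 was higher in the mutant on finasteride by 2.62 ± 0.12 (limma adjusted p = 1.26e-10), beside 2.53 for B2m. Near to Tap1 were Sun2 (0.106) and Fam129b (0.121). Nearest to Nlrc5 were the lymphocyte surface gene Ly9 (0.276), the apolipoprotein gene Apoc1 (0.317) and H2-Q5 (0.367). For Tap2 the nearest gene was Psme1 (0.0860), for Tapbp H2-K2 (0.0928), for Psmb9 Fkbp10 (0.0956), for Psmb8 the leukocyte phosphatase gene Inpp5d (0.179), for H2-K1 Itm2b (0.130) and for H2-D1 the progranulin gene Grn (0.139). The libraries share groups, so these distances describe likeness only.

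By chromosome, B2m lies on 2, Nlrc5 on 8 and the other 8 genes on 17. In the RefSeq order Psmb9, Tap1, Psmb8 and Tap2 are neighbours among tested genes, and all 4 rose with finasteride in the mutant. The gene after Tap2, the class II gene H2-Ob, rose there by 2.17 (limma adjusted p = 5.41e-06). Around Tapbp, Zbtb22 (0.01) and Rgl2 (0.07) did not pass in that comparison (limma adjusted p = 0.906 and 0.532), and neither did Ring1 beside H2-K1 (-0.08, adjusted p = 0.593) or Ddx39b beside H2-D1 (0.06, adjusted p = 0.658). On vehicle the neighbours of H2-Q10, H2-Q7 and Tcf19, were at 0.14 and -0.48 (limma adjusted p = 0.759 and 0.178), beside -7.74 for H2-Q10.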

How the data were processed

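Poly-A selected RNA was sequenced from TruSeq libraries on a HiSeq2000, per the labels' protocols. The submitters' processing notes name build mm9, DESeq2, DESeq, Cufflinks, TopHat and CASAVA 1.8.2; which of them made the table the authors deposited is not given in the sources used here. The authors deposited 1 table of normalized expression on a log2 scale. Its base was inferred from library totals of similar size. Depth is unknown, since whole reads could not be recovered, and no counting intervals are given.

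Groups came from the labels. limma 3.58.1 in R 4.3.3, with a variance trend, fitted 4 group means to the log2 values of 16895 genes, those whose mean out of log2 was 10 or more. Benjamini-Hochberg adjustment ran over all of them, and calls were made at 0.05. The model was checked on simulated data. Alternatives were other filters (none, or a mean of 50), pseudocounts of 1 and 16, quantile normalization, median centring, robust and untrended variance, the compared groups alone, each library left out, 11 libraries (also with quantile normalization) and a seminal vesicle covariate; the last 2 kinds were chosen after the data were seen. A library was taken as close to a mixture when a pair of its group, both with weights over 0.2, fitted its genes of at least 8 log2 within a residual of 0.1.

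The genes and lists were chosen with earlier results of these data known. Named genes were the 10, up to 4 genes with the lowest p of each list, the most abundant gene of each marker list, the nearest tested genes on chromosome 17, and the 3 nearest profiles of each gene; the text gives a subset, chosen after the values were seen, and a few genes among them are not reported here. Promoters are from RefSeq for GRCm38.p6 and were matched by symbol; no coordinates of build mm9 are used.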

Additional observations from a re-analysis of the deposited data

Results flagged for a closer look

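The effect of finasteride differed between the genotypes, by the interaction term of limma, in 9 of the 10 class I genes. Over all genes tested the interaction was higher in 30.2% and lower in 26.6%. The interaction, the effect in the mutant minus that in wild type on the log2 scale, was 8.67 for H2-Q10, 3.0 for Nlrc5, 1.87 for Psmb8, 1.43 for Psmb9, 1.41 for B2m, 0.78 for Tap1, 0.64 for H2-D1, 0.60 for H2-K1 and 0.46 for Tap2. For H2-Q10, Psmb8, Psmb9 and Nlrc5 the effects in both genotypes passed the threshold over 16 libraries, lower in wild type and higher in the mutant, and B2m passed in wild type alone. Over 11 libraries the interaction passed for H2-Q10, Nlrc5, Psmb8, Psmb9, B2m and Tap1, where 29.4% of all genes were called in either direction.

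In the groups of 5, 1 library stood apart from the rest of its group in 2 of 20 pairs of gene and group, and chance gives about 1 in 20. Tap2 was 9.48 in library 1 of wild-type finasteride, above 8.88 to 9.05 in the other 4. Psmb9 was 8.87 in library 2 of mutant finasteride, above 8.54 to 8.62 in the other 4. The cause was not tested.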

How the results depend on the processing

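No sign of a called difference reversed under any alternative run. Of the 10 genes, the count called for genotype on vehicle was 6 over 16 libraries, 1 over 11 libraries and 2 over 11 with quantile normalization, where 9.06% and 8.73% of all genes were called. For finasteride in wild type it was 5, then 1 over 11 libraries with either scaling (8.55% and 6.83% of all genes) and 2 with the seminal vesicle covariate (17.8%). For finasteride in the mutant it was 9, and 5 over 11 libraries (20.3%); fewer samples enter these fits, and otherwise the cause was not tested. With each library left out in turn, the counts were 5 to 6 for genotype on vehicle, 3 to 5 for finasteride in wild type (3 without library 2 or 3 of wild-type vehicle), 8 to 10 for finasteride in the mutant, 9 to 10 for genotype on finasteride and 8 to 10 for the interaction. Of all genes these fits called 23.3% to 37.7%, 27.2% to 45.8%, 38.5% to 53.6%, 59.2% to 67% and 50.8% to 61.4% in the same order. Of 50 single results, calls stayed on their side of the threshold in 50 with a pseudocount of 1 or 16 or a minimum mean of 50, 49 with robust variance and 49 without the trend, 48 with no filter, 47 under quantile normalization, 45 with the covariate, 43 under median centring and 34 over 11 libraries. No paired analysis was possible because the numbers in the sample titles do not repeat between groups. Depth is unknown, so its effect on precision could not be given.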
